A study of Mus musculus with 3 samples.

Results

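Wnt ligands, their Frizzled (Fzd) receptors and the secreted inhibitors of the Sfrp and Dkk families were measured in mouse embryos, taken whole at 8.5 days post coitum (dpc). The members are all probe sets whose only gene symbol in the platform annotation is a numbered Wnt, Fzd, Sfrp or Dkk. That gave 37 of the 18193 genes named alone by a probe set, read by 73 of the 45101 probe sets on the array. These are 19 Wnt ligands with 32 probe sets, 10 Fzd receptors with 26, and 8 inhibitors with 15 (4 Sfrp and 4 Dkk genes). Members were matched by name and not by signal, but they were chosen with earlier results of these data known.

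The study set Dnmt3l mutant embryos against normal ones on 3 Affymetrix arrays of 1 colour, and each array read RNA from 1 pool of litter mates of mixed sex. Mutant pools 1 and 2 held 8 and 6 embryos of genotype Dnmt3l-/+, whose dams were Dnmt3l-/- and whose sires were wildtype, with C57Bl/6J as the background. The single normal pool held 6 C57Bl/6J embryos. Dnmt3l helps the enzymes that lay down new DNA methylation in oocytes, and the series title calls the mutants deficient in maternal methylation. Each mutant embryo carries a wildtype paternal allele, so its own Dnmt3l signal does not check the labels. That signal was 183 and 14.3 in the mutant pools and 12.2 in the normal pool, too dim to be tested. The normal group had no replicate. The number of arrays limits the precision of every value below, and each mutant group is n = 2 pools.

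Wnt proteins are secreted, lipid-modified ligands that bind Fzd receptors on neighbouring cells. In the canonical branch they also bind Lrp5 or Lrp6, which stabilises beta-catenin and lets it switch on target genes with TCF/LEF factors. Other Wnts act through planar cell polarity and the Ror receptors. Sfrp proteins hold Wnt ligands outside the cell, and Dkk1 blocks the Lrp coreceptors. At this stage Wnt signals are known for keeping the tailbud and presomitic mesoderm growing, for patterning the dorsal neural tube, and for steps of heart formation.

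Promoters of a few members are shown because methylation is the process disturbed in these embryos and because CpG content differs among the genes described below. Each line is the 250 bases before the RefSeq start of the gene in build GRCm38.p6, written 5′ to 3′ on the gene's strand. Capitals mark CTTTGA or its reverse complement TCAAAG, a core bound by TCF/LEF factors, searched on both strands. The genes were picked after their signals were seen. Dkk1, Wnt5b and Fzd9 read lower in both mutant pools and Wnt4 read higher. Dkk1 lies at chr19:30549497-30549746 (minus strand), Wnt5b at chr6:119544348-119544597 (minus strand, the most upstream of 3 listed starts), Fzd9 at chr5:135251048-135251297 (minus strand) and Wnt4 at chr4:137277385-137277634 (plus strand).
Dkk1: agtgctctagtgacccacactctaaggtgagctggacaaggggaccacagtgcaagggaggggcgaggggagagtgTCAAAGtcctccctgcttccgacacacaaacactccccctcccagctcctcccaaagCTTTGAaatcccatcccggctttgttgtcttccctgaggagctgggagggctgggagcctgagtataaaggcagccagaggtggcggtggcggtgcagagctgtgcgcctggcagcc
Wnt5b: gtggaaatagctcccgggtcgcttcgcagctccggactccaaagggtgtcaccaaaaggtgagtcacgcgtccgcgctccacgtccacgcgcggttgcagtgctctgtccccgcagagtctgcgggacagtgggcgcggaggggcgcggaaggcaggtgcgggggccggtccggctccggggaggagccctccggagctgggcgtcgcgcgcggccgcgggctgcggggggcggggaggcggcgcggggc
Fzd9: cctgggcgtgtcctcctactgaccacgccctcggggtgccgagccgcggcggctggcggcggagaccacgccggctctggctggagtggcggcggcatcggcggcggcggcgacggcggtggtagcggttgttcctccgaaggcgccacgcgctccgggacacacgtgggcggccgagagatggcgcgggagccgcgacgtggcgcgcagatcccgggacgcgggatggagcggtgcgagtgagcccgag
Wnt4: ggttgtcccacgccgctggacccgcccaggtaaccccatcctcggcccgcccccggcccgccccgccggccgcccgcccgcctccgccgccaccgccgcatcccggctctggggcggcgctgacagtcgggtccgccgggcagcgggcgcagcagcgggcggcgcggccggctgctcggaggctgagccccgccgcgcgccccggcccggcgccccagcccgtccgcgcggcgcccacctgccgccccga

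The Dkk1 window held 2 copies of the core and 6 CpG sites. The printed Wnt5b, Fzd9 and Wnt4 windows held none of the core and 35, 42 and 44 CpG sites. The windows at the other Wnt5b starts held 4 and 7 CpG sites, and the one with 7 held 1 copy of the core. Over the 25 member genes with an entry, 4 of 28 windows held the core (14.3%), against 13.8% of all 32851 windows of the same length. These 4 were of Dkk1 and Wnt5b, which read lower in both mutant pools, and of Wnt11 and Fzd1, which read higher in both, so the core stood beside both directions. The median number of CpG sites was 22 in member windows and 6 in all windows. A match describes letters only, and no methylation was measured here.

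Over the whole family, no Wnt, Fzd, Sfrp or Dkk probe set passed the test, while more of them read lower than higher in the mutants. Probe sets in the dimmest 40% of the array, by the mean over both groups, were left out of the test, which kept 50 of the 73 member probe sets and 30 of the 37 genes. Signals were compared as log2(signal + 31.92), mutant over normal. The added 31.92 is the signal of a dim probe set, the 20th percentile of an array, and it understates the change of dim genes. Limma, fitted to all 27022 kept probe sets with Benjamini-Hochberg adjustment, called 0 member probe sets higher and 0 lower. The same fit called 0.548% of all kept probe sets higher and 0.0296% lower. At an unadjusted limma p under 0.05, 0 member probe sets were higher and 10 were lower, against 6.7% and 6.86% of all kept probe sets. The lowest adjusted p among members was 0.108, for Fzd2.

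By direction, 30 of the 50 kept member probe sets read below normal in both mutant pools, 9 read above in both and 11 were split. Over all kept probe sets, 42.5% were below in both and 32.2% were above in both. At least 1.5-fold lower in both pools were 11 member probe sets, against 7.37% of all kept, and 0 were that much higher, against 6.32%. At least 2-fold lower in both were 3 (1 probe set each of Fzd2, Wnt5a and Wnt5b), against 1.9%, and 0 were 2-fold higher, against 2.57%. These 3 lay near the limit, and the count was 0 with a doubled pseudocount or with median centring of the arrays. The filter averages both groups, and it kept this Wnt5b probe set only through its normal signal of 234.8. The mutant signals, 92.13 and 61.32, averaged below the filter limit. A Fzd6 probe set that read 148.6 and 199.8 in the mutant pools, against 17.41 in the normal pool, was removed. Without the filter, 1 member probe set was therefore at least 2-fold higher in both pools. Several probe sets belong to 1 gene and are not independent. Counted by gene, with the brightest kept probe set standing for each, 16 of 30 were below normal in both pools, 4 above and 10 split, against 39.1% below and 36.5% above among all 12913 genes. At least 1.5-fold lower in both were 4 genes (Fzd2, Fzd9, Wnt2b and Wnt5b), against 3.78% of all genes, and 0 were that much higher, against 7.33%. Of these, Wnt2b was kept only through its normal signal of 156.2. Its mutant signals of 55.67 and 71.63 averaged below the filter limit. The median log2 ratio of the 30 genes was -0.26 (-0.30 in mutant pool 1 and -0.13 in mutant pool 2), and that of all genes was -0.02. By role the median was -0.26 for ligands, -0.12 for receptors and -0.34 for inhibitors, and with no dim probe set removed it was -0.14 for ligands.

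**Figure D1:**
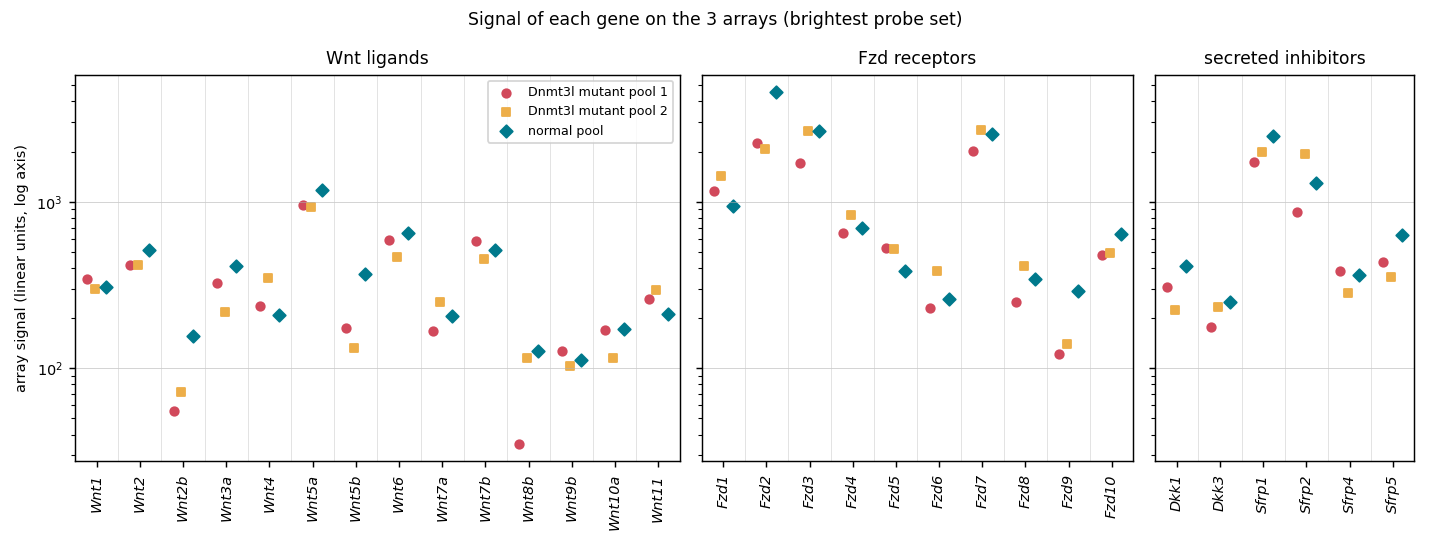
Array signal (linear units, log axis) of the 30 member genes kept by the filter, by role, from the brightest probe set of each. Circles and squares are Dnmt3l mutant pools 1 and 2 and diamonds are the normal pool. Fzd2 reads 2257 and 2066 in the mutant pools, below 4550 in the normal pool. Levels of different genes cannot be compared, because each is read by its own probes.

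Among the ligands, Wnt5b had the lowest ratio. Wnt5b and Wnt5a are related ligands of the non-canonical branch, and both are known from the tail end of the embryo. The brighter Wnt5b probe set (of a class, _x_at, whose probes may also match other transcripts) read 175.5 and 132.4 in the mutant pools, against 366.5 in the normal pool, a log2 ratio of -1.11 (SE 0.32, 95% interval -1.92 to -0.30, limma adjusted p = 0.246). The other Wnt5b probe set read 92.13 and 61.32 in the mutant pools, against 234.8 in the normal pool, a log2 ratio of -1.31 (SE 0.37, limma adjusted p = 0.24). Both probe sets were lower in both mutant pools, and neither passed.

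The 4 kept Wnt5a probe sets did not read alike. The brightest gave 959.1 and 925.7 in the mutant pools, against 1182 in the normal pool, a log2 ratio of -0.32 (SE 0.22, limma adjusted p = 0.597). A probe set of near equal brightness gave 531.9 and 582.3 in the mutant pools, against 1211 in the normal pool, a log2 ratio of -1.08 (SE 0.24, limma adjusted p = 0.172). The remaining pair gave -0.74 and 0.14. The size for Wnt5a therefore depends on the probe set, and 3 of the 4 were lower in both mutant pools.

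Wnt3a, the canonical ligand of the tailbud and dorsal neural tube, read 326.7 and 218.2 in the mutant pools, against 413.9 in the normal pool. Its log2 ratio was -0.57 (SE 0.34, limma adjusted p = 0.528), with -0.31 in mutant pool 1 and -0.83 in mutant pool 2. Wnt2b, a canonical ligand, read 55.67 and 71.63 in the mutant pools, against 156.2 in the normal pool. Its log2 ratio was -0.98 (SE 0.37, 95% interval -1.90 to -0.06, limma adjusted p = 0.347). Both mutant pools lay below normal for these ligands. The Wnt2b ratio ranged from -1.12 to -0.79 over the alternative settings that kept it, and the stricter filter removed it. Wnt8b, a ligand of the early forebrain, read 35.21 and 116 in the mutant pools, against 127 in the normal pool. Its mutant pools stood more than 2-fold apart, so its ratio of -0.67 (SE 0.55) rests on mutant pool 1, and without that pool it was -0.10.

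Among the kept ligands, Wnt4 and Wnt11 read above normal in both mutant pools. Wnt4, known from the neural tube, the kidney and the uterine decidua, read 237 and 349.7 in the mutant pools, against 210.3 in the normal pool. Its log2 ratio was 0.40 (SE 0.34, limma adjusted p = 0.665), and its dimmer probe set gave 0.51. Wnt11, a non-canonical ligand of heart and trunk mesoderm, read 261.1 and 296.7 in the mutant pools, against 213.1 in the normal pool (log2 ratio 0.34, SE 0.29, limma adjusted p = 0.672). Both 95% intervals include 0, from -0.45 to 1.26 for Wnt4 and from -0.39 to 1.07 for Wnt11.

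The other kept ligands had log2 ratios from -0.30 to 0.05, and of these Wnt2, Wnt6 and Wnt10a read below normal in both mutant pools. Wnt1, the ligand of the midbrain and dorsal neural tube, read 343.9 and 300.4 in the mutant pools, against 308.8 in the normal pool, a log2 ratio of 0.05 with a 95% interval of -0.65 to 0.76. Wnt2, a ligand of the early heart region and allantois, read 419.7 and 415.4 in the mutant pools, against 512.3 in the normal pool (log2 ratio -0.28). Wnt6, a ligand of surface ectoderm, read 588.1 and 464.1 in the mutant pools, against 651.7 in the normal pool (log2 ratio -0.30). Wnt7a of the dorsal limb ectoderm (-0.01), Wnt7b of placenta and lung (0.01), Wnt9b of the kidney ducts (0.02) and Wnt10a of teeth and hair (-0.25) completed the set. For Wnt1, Wnt7a, Wnt7b and Wnt9b the mutant pools lay on either side of normal. The interval for Wnt1 spans changes of more than 1.5-fold in both directions, and so these values do not show equal levels.

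Wnt3, Wnt8a, Wnt9a, Wnt10b and Wnt16 were removed by the filter with all their probe sets, as were Dkk2 and Dkk4. Their 8 probe sets read from 3.417 to 124.7 over the 3 arrays. The top of that range was Dkk2, which read 37.61 and 124.7 in the mutant pools and 35.91 in the normal pool. Wnt3, a ligand known from the forming primitive streak, read 21.76 and 3.417 in the mutant pools and 14.66 in the normal pool, below the 20th percentile of the array in all 3. Wnt8a, a ligand of the primitive streak, read 66.68 and 76.59 in the mutant pools and 72.98 in the normal pool. Wnt16, a ligand of bone and joints, read above normal in both, at 24.07 and 29.11 in the mutant pools and 10.1 in the normal pool, all of them dim. The filter left these 7 genes untested.

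**Figure D2:**
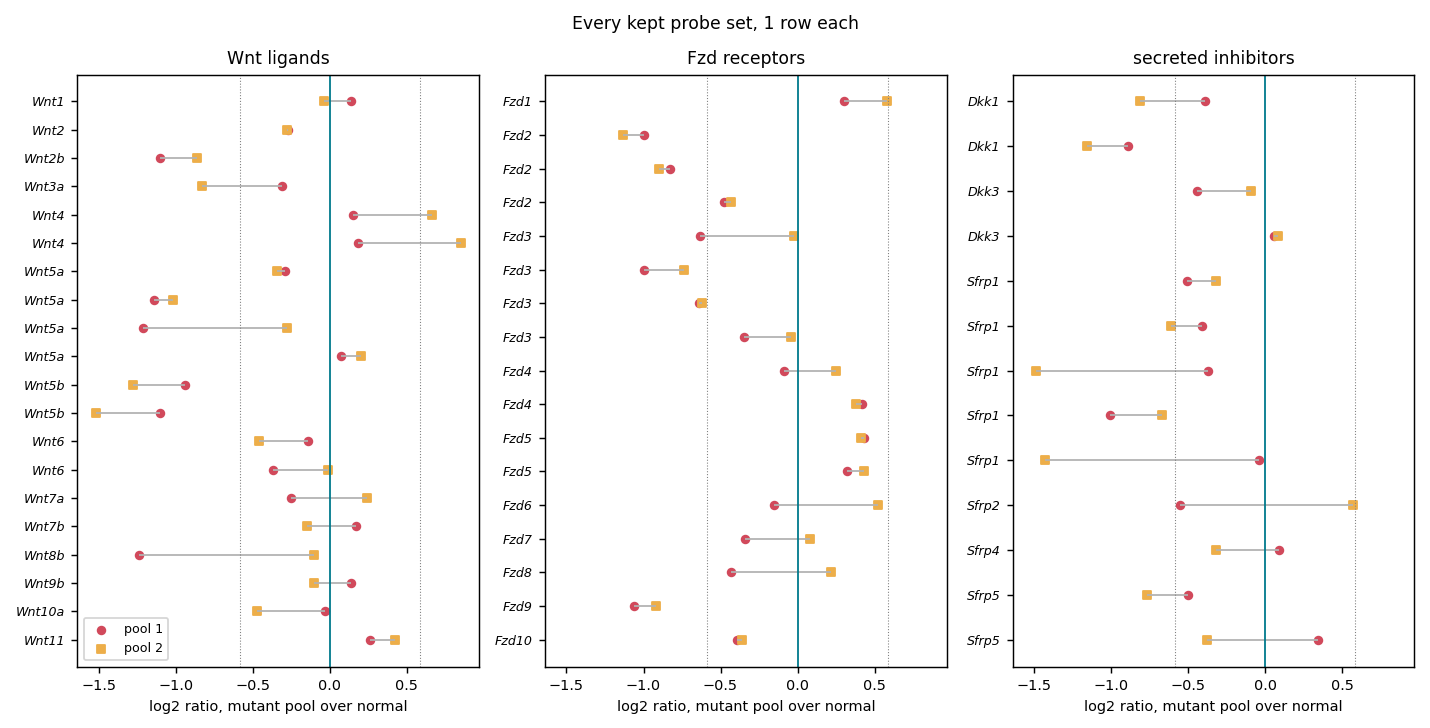
Log2 ratio of each mutant pool over the normal pool for the 50 kept member probe sets, 1 row each, with the gene named at the left and probe sets of a gene ordered from bright to dim. Circles are mutant pool 1, squares mutant pool 2, the solid line is no difference and the dotted lines mark 1.5-fold. All 3 Fzd2, both Wnt5b and all 5 Sfrp1 probe sets lie left of the solid line in both pools, and no probe set lies right of the 1.5-fold line in both.

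Fzd2 had the smallest p of the family. It is a receptor broadly expressed in mesenchyme that can pass on both canonical signals and those of Wnt5a. Its brightest probe set (of a class, _s_at, that may match more than 1 transcript) read 2257 and 2066 in the mutant pools, against 4550 in the normal pool, a log2 ratio of -1.06 (SE 0.19, 95% interval -1.54 to -0.59, limma adjusted p = 0.108). The next read 2111 and 2012 in the mutant pools, against 3784 in the normal pool, a log2 ratio of -0.87 (SE 0.19, limma adjusted p = 0.162). The dimmest read 1522 and 1575 in the mutant pools, against 2136 in the normal pool, a log2 ratio of -0.46 (SE 0.20, limma adjusted p = 0.409). In each case the mutant pools lay closer to each other than to the normal pool, the order of the 3 ratios ran with brightness, and none passed.

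Fzd9, a receptor of the neural tube, read 122.6 and 139 in the mutant pools, against 291 in the normal pool. Its log2 ratio was -0.99 (SE 0.31, 95% interval -1.78 to -0.20, limma adjusted p = 0.281), from a single probe set. Fzd3, a receptor of axon guidance and planar polarity, had 4 kept probe sets, all below normal in both mutant pools. Its brightest read 1714 and 2640 in the mutant pools, against 2673 in the normal pool, so mutant pool 2 was at the normal level (log2 ratio -0.32, SE 0.30, limma adjusted p = 0.69). The second read 334.5 and 405.1 in the mutant pools, against 699 in the normal pool, a log2 ratio of -0.87 (SE 0.27, limma adjusted p = 0.277). The others gave -0.63 and -0.20. Fzd10, known from the dorsal neural tube, read 481.7 and 492.1 in the mutant pools, against 638.8 in the normal pool (log2 ratio -0.37, SE 0.25, limma adjusted p = 0.582).

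Fzd1 and Fzd5 read above normal in both mutant pools. Fzd1, a canonical receptor, read 1163 and 1421 in the mutant pools, against 939.6 in the normal pool, a log2 ratio of 0.44 (SE 0.24, limma adjusted p = 0.502). Fzd5, a receptor that mice need for yolk sac and placental vessels, read 527.4 and 521.3 in the mutant pools, against 383.2 in the normal pool, a log2 ratio of 0.42 (SE 0.26, limma adjusted p = 0.541). Its dimmer probe set gave 0.37. Fzd5 stood above normal by more than the gap between the mutant pools. Fzd1 gave 0.30 in mutant pool 1 and 0.58 in mutant pool 2, so its pools differed by about as much as pool 1 did from normal. Neither gene passed.

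Fzd4, Fzd6, Fzd7 and Fzd8 had mutant pools on either side of normal by their brightest probe sets, with mutant pool 1 below and mutant pool 2 above. Fzd4, the vascular receptor for norrin as well as Wnts, gave 0.08 (-0.09 in mutant pool 1 and 0.25 in mutant pool 2), while its next probe set was above normal in both, with a log2 ratio of 0.40. Fzd7, a canonical receptor, read 2007 and 2685 in the mutant pools, against 2546 in the normal pool (log2 ratio -0.13, 95% interval -0.74 to 0.48). Fzd6, a planar polarity receptor of skin and hair, gave 0.18 from its kept probe set, and Fzd8, known from anterior endoderm and forebrain, gave -0.10. A second Fzd6 probe set, removed by the filter, read 148.6 and 199.8 in the mutant pools, against 17.41 in the normal pool, where it lay below the array's 20th percentile. The last, also removed, read 68.17 and 67.18 in the mutant pools, against 95.81 in the normal pool. The 3 Fzd6 probe sets therefore gave different directions. Over the 10 receptors the median log2 ratio was -0.12, with -0.36 in mutant pool 1 and 0.15 in mutant pool 2, so the sign of the receptor median depended on the pool.

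Of the 6 kept secreted inhibitor genes, 4 read below normal in both mutant pools (39.1% of all genes did), 0 read above in both (36.5% of all genes did) and 2, Sfrp2 and Sfrp4, were split. None passed, and by the brightest probe set 0 genes reached a 1.5-fold lower signal in both pools. Of the 13 kept inhibitor probe sets, 2 did (a dimmer one each of Dkk1 and Sfrp1), against 7.37% of all kept probe sets. The 6 genes had a median log2 ratio of -0.34 (-0.47 in mutant pool 1 and -0.32 in mutant pool 2), and -0.19 with no dim probe set removed. Dkk1, the secreted blocker of Lrp coreceptors that shapes the head and is itself switched on by Wnt signals, read 307.5 and 222.4 in the mutant pools, against 412.9 in the normal pool. Its log2 ratio was -0.60 (SE 0.32, limma adjusted p = 0.49). The dimmer Dkk1 probe set read 111 and 86.55 in the mutant pools, against 232.7 in the normal pool, a log2 ratio of -1.02 (SE 0.34, 95% interval -1.88 to -0.17, limma adjusted p = 0.301). Both probe sets were lower in both mutant pools.

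Sfrp1, a Wnt-binding inhibitor, had the most kept probe sets of the family, and all 5 were below normal in both mutant pools. The brightest read 1734 and 1979 in the mutant pools, against 2482 in the normal pool, a log2 ratio of -0.42 (SE 0.21, limma adjusted p = 0.462). The lowest adjusted p among the 5 was 0.29, from a probe set that read 444.2 and 567.9 in the mutant pools, against 924.8 in the normal pool (log2 ratio -0.84, SE 0.27). In 2 of the 5 the mutant pools stood more than 2-fold apart, with mutant pool 2 the lower. One of them read 755.5 and 330 in the mutant pools, against 982.3 in the normal pool. Sfrp5, an inhibitor of foregut endoderm and early heart, read 433.6 and 353.9 in the mutant pools, against 627.2 in the normal pool (log2 ratio -0.64, SE 0.28, limma adjusted p = 0.398), and its dimmer probe set gave -0.02.

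Sfrp2 split the mutant pools. This inhibitor of neural tube and mesoderm read 871.8 and 1932 in the mutant pools, against 1290 in the normal pool, so 1 pool was below and 1 above normal and the mean ratio of 0.01 (SE 0.46) describes neither. Sfrp4, another Wnt-binding inhibitor, read 386.3 and 282.5 in the mutant pools, against 361.5 in the normal pool (log2 ratio -0.12). Dkk3, a divergent relative that does not act as Dkk1 does, gave -0.27 and 0.07 from its probe sets. Of all kept member probe sets, 4 had mutant pools at least 2-fold apart, against 4.58% of all kept probe sets.

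Probe sets of 1 gene gave a further check of direction within these same 3 RNA pools. Among the 12 member genes with several kept probe sets, 6 had every one below normal in both mutant pools, namely Dkk1, Fzd2, Fzd3, Sfrp1, Wnt5b and Wnt6. In mutant pool 2, the dimmer Wnt6 probe set (-0.01) and Fzd3 probe sets at -0.02 and -0.04 were barely below normal. Wnt4 and Fzd5 had every one above. Among all 5725 genes with several kept probe sets, 15.3% had every one below and 14.6% every one above. Such probe sets share the RNA, so their agreement says nothing of how pools vary.

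Components that carry the signal inside the cell were described from a list, as were the other genes of the pathway. By gene, limma called 0.728% of all genes higher and 0.031% lower. Of all genes, 39.1% were below normal in both mutant pools and 36.5% above in both, for comparison with each list below. Of 19 genes kept on a list of cytoplasmic and nuclear components, 0 passed, 6 were above normal in both mutant pools and 8 below, with a median log2 ratio of -0.12. Ctnnb1, which encodes beta-catenin, read 13170 and 14120 in the mutant pools, against 12820 in the normal pool (log2 ratio 0.09, SE 0.14). Lef1, a transcription factor partner of beta-catenin, read 951.5 and 978.1 in the mutant pools, against 1597 in the normal pool (log2 ratio -0.71, SE 0.22, limma adjusted p = 0.268). Tcf7l1, a relative that mostly represses, read 1445 and 1684 in the mutant pools, against 828.5 in the normal pool (log2 ratio 0.89, SE 0.23, limma adjusted p = 0.21), while its dimmer probe set gave -0.08. Tcf7l2, another factor of that family, gave 0.93 from its brightest probe set, with 0.50 in mutant pool 1 and 1.36 in mutant pool 2, while its other probe sets gave 0.13 and -0.06. Ctnnbip1, an inhibitor of beta-catenin, gave -0.43.

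Coreceptors and other receptors had 13 kept genes, 0 of which passed, with 8 above normal in both mutant pools, 3 below and a median of 0.18. Over all genes, 36.5% were above in both and 39.1% below. Lrp5, the canonical coreceptor, read 274.5 and 233.9 in the mutant pools, against 89.88 in the normal pool, a log2 ratio of 1.23 (SE 0.32, limma adjusted p = 0.21). Lrp6, its partner in the same role, read 1771 and 2008 in the mutant pools, against 1671 in the normal pool (0.17). Lgr6, an R-spondin receptor, gave 0.94. Ror2, a receptor for Wnt5a, read 545.8 and 579.4 in the mutant pools, against 1022 in the normal pool (log2 ratio -0.83, SE 0.24, limma adjusted p = 0.246), and the planar polarity coreceptor Ptk7 gave -0.82. Ror2 and Wnt5b both read lower in both pools and neither passed, and a link between them was not tested.

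On the planar cell polarity list, which also holds Ror2 and Ptk7, 7 of 12 genes were below normal in both mutant pools, 2 above and 0 passed, with a median of -0.30. Prickle1 (-0.56) and Celsr2 (-0.52) were the next lowest by their less changed pool, while the other Prickle1 probe set gave 0.42, the opposite direction. Of 15 kept genes for Wnt secretion and other secreted modulators, 8 were below in both, 3 above and 0 passed, with a median of -0.25. For both of these lists, the shares over all genes were 39.1% below in both and 36.5% above. Porcn, the enzyme that attaches the lipid to Wnt proteins, read 202.5 and 239.7 in the mutant pools, against 397.2 in the normal pool (log2 ratio -0.77, SE 0.29, limma adjusted p = 0.356). Frzb, a relative of the Sfrp inhibitors, gave -0.83, Shisa2 gave -0.68 and Draxin gave -0.51.

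Wnt target genes had the lowest median of the 5 other pathway lists. Of 19 kept genes, 15 were below normal in both mutant pools (39.1% of all genes were) and 1 was above (36.5% of all genes were). None passed, and the median log2 ratio was -0.50 (-0.59 in mutant pool 1 and -0.36 in mutant pool 2). Cdx4, a caudal homeobox gene, read 616.1 and 443.5 in the mutant pools, against 1880 in the normal pool, a log2 ratio of -1.78 (SE 0.28, limma adjusted p = 0.0896). Sp5, a direct target in many tissues, read 224.1 and 234.9 in the mutant pools, against 580.4 in the normal pool (log2 ratio -1.23, SE 0.28, limma adjusted p = 0.173). Tbx6 and Sp8 each gave -1.11. Axin2, the most general feedback target, read 1023 and 1143 in the mutant pools, against 1389 in the normal pool, a log2 ratio of -0.35 (SE 0.22, limma adjusted p = 0.559). Tbx6, Msgn1 and Dll1 are also on the list of tailbud markers, and Lef1, Notum, Lgr5 and Znrf3 stand on this list and on another pathway list.

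**Figure D3:**
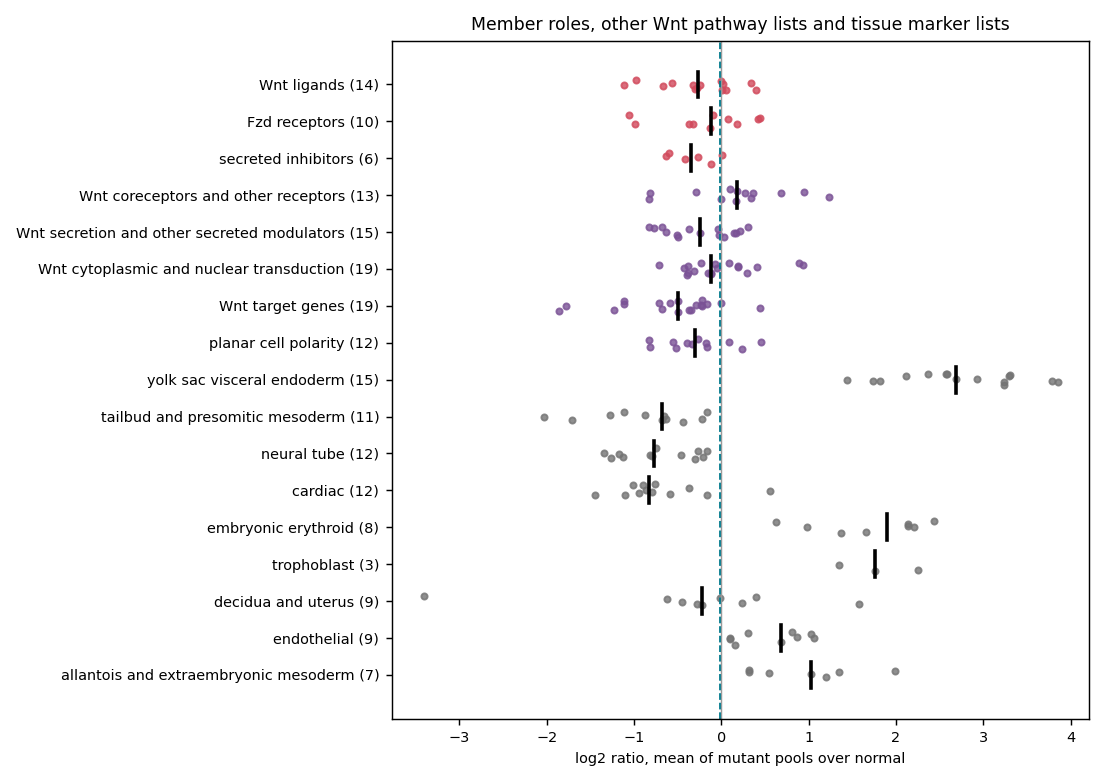
Log2 ratio (mean of the mutant pools over the normal pool) of each kept gene on the member roles, other Wnt pathway lists and tissue marker lists, with the number of genes in brackets. Points are genes, spread vertically for sight, black bars are medians, the dashed line is the median of all genes (-0.02) and the grey line is 0. The inhibitors sit at a median of -0.34 and Wnt targets at -0.50, between the tailbud markers at -0.68 and 0.

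Markers of the tissues that the pools could hold were read from the same arrays. The filter kept 12 of 12 cardiac, 12 of 13 neural tube and 11 of 11 measured tailbud markers. It averages both groups, so being kept does not show that a marker was present in each group. Tailbud and presomitic markers had a median log2 ratio of -0.68, with 9 of 11 below normal in both mutant pools, and their summed signal was 4995 and 4344 in the mutant pools, against 7977 in the normal pool. Neural tube markers had a median of -0.77, with 12 of 12 below in both, and summed to 5302 and 6809 in the mutant pools, against 10080 in the normal pool. Cardiac markers had a median of -0.83 with 11 of 12 below in both, and summed to 21520 and 29680 in the mutant pools, against 39620 in the normal pool. None of these 3 lists had a gene that passed. Over all genes, 39.1% were below normal in both mutant pools.

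Yolk sac visceral endoderm markers were higher in the mutants. All 15 measured were higher in both mutant pools, against 36.5% of all genes, and 14 rose by limma, against 0.728%. Their median was 2.68, and they summed to 102700 and 111400 in the mutant pools, against 19480 in the normal pool. Embryonic erythroid markers had a median of 1.90, with 8 of 8 kept above normal in both and 2 that rose, Hba-x and Slc4a1. Endothelial markers had a median of 0.68 and those of allantois and extraembryonic mesoderm 1.03, with 0 called in each. Of the 7 trophoblast markers measured, 3 were kept and had a median of 1.76, with 1 that rose, Esx1. Ascl2, Tpbpa, Elf5 and Ctsq were removed as dim. Hand1 is a kept gene of both the trophoblast list and the allantois and extraembryonic mesoderm list. The decidua and uterus list, which holds Wnt4, had a median of -0.22 with 1 gene that fell, Prl8a2. All these marker calls depended on the settings, since limma called 0 probe sets of the whole array higher and 0 lower without the filter, and likewise without a variance trend. No kept marker had a signal of 0, but member probe sets removed as dim also read above 0, down to 3.417. A signal above 0 therefore does not show that a tissue was present. The part of tissue makeup in the lower Wnt5b, Fzd2, Fzd9 and Dkk1 signals, or in the higher Fzd5 and Wnt4 signals, was not tested. In pooled whole embryos, fewer cells of a type and less RNA per cell cannot be told apart.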

How the data were processed

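The authors deposited linear array intensities, with 1 value for each probe set and array. GCOS and MAS5 are named in the submitters' processing notes, with no settings. RNA was extracted with Trizol, per the labels' protocols. Each array had a mean of 500 once 2% of values was trimmed from either end, so arrays had been scaled to 1 trimmed mean. That scaling takes the trimmed total signal as alike, so a large tissue shift could move other genes the opposite way. Whether it did so here was not tested. Median signals were 130.0 and 139.6 on the mutant arrays and 143.6 on the normal array, and Actb control probe sets gave a 3' over 5' ratio of 1.24 and 1.43 on the mutant arrays and 1.62 on the normal array, while those of Gapdh gave 0.859 and 1.10 on the mutant arrays and 0.93 on the normal array. Of 45101 probe sets, 64 controls were left out. The platform annotation gives 34945 probe sets 1 symbol and 932 several, and does not list 9160. No gene was named from several symbols.

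The pseudocount, 31.92, is the median over arrays of the 20th percentile. For the filter, log2(signal + 31.92) was averaged within each group and then over groups, and probe sets under the 40th percentile of that average were removed. Limma 3.58.1 (R 4.3.3) was fitted with lmFit and eBayes with a variance trend, two-sided, at an adjusted p threshold of 0.05. It had 1 residual degree of freedom, from the mutant pair, plus 4.52 prior ones, and assumes that the normal array varies as the mutants do. The p-values measure only the spread between these pools. Member genes are given with their 3 signals where their brightest probe set was at least 1.5-fold from normal in both mutant arrays, which held for Fzd2, Fzd9, Wnt2b and Wnt5b. Others given in full were chosen after their values were seen. Other pathway lists give up to 4 genes by the less changed mutant array and any that passed, and marker lists are given by counts, medians and sums, except that Ctnnb1, Lrp6 and Axin2 were added for their roles. The members and lists were chosen with earlier results of these data known. Promoter sequences are from RefSeq, GRCm38.p6, with entries for 25 of the 37 genes. The array values name no genome build.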

Additional observations from a re-analysis of the deposited data

How the results depend on the processing

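No paired analysis was possible because the normal group is 1 array and shares no replicate pairs with the mutants. With 1 residual degree of freedom, from the mutant pair, leaving out a mutant array gives values with no test. Under every alternative with a test, 0 member probe sets were called higher and 0 lower by limma, and the lowest adjusted p of a member gene was 0.101. Over the whole array the calls depended on the settings. Main values were 148 higher and 8 lower, against 263 and 24 with median centring, 0 and 0 without the filter, and 0 and 0 without a variance trend. Member probe sets at least 2-fold lower in both pools numbered 3, against 0 with the pseudocount doubled, 0 with median centring, and 7 when either mutant array stood alone, where only 1 array had to pass. Without the filter 1 member probe set, of Fzd6, was at least 2-fold higher.

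The ligand median of -0.26 was -0.28 with the pseudocount halved, -0.24 with it doubled, -0.14 without the filter, -0.19 with median centring, -0.22 with quantile normalization and -0.20 with cyclic loess. It ranged from -0.22 to -0.14 when a mutant array was left out. The receptor median ranged from -0.36 without mutant array 2 to 0.15 without mutant array 1, where it changed sign. The inhibitor median of -0.34 was -0.19 without the filter and -0.22 from the mean of each gene's probe sets, and ranged from -0.47 to -0.32 when a mutant array was left out. The median of all kept probe sets was -0.07, and 0.01 with median centring. For Wnt secretion and modulators it was -0.21 without the filter, -0.37 with the stricter filter, -0.18 with median centring and -0.28 with quantile normalization, and ranged from -0.20 to -0.13 when a mutant array was left out. With median centring the cytoplasmic and nuclear list gave -0.04 and planar cell polarity -0.23. When a mutant array was left out, coreceptors ranged from 0.14 to 0.26, cytoplasmic and nuclear components from -0.01 to 0.04, where the sign turned, and planar cell polarity from -0.38 to -0.32. Of 30 member genes, 28 kept their direction under every alternative that uses both mutant arrays and gave the gene a value. The exceptions were near 0. They were Sfrp2 at -0.02 with quantile normalization, and Wnt7a at 0.07 with median centring and 0.08 with both quantile normalization and cyclic loess. The stricter filter removed Fzd9, Wnt2b, Wnt7a, Wnt8b, Wnt9b and Wnt10a, so these genes have no value under that setting. Apart from settings that remove probe sets or arrays, the causes were not tested.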
